A study of Rattus norvegicus with 30 samples.

Results

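Rats on a zinc-deficient (ZD) diet that had received an oligonucleotide against the microRNA miR-31 for 20 weeks were compared with ZD rats that had received it for 5 weeks. The rats were chosen by the titles of their samples, which name 5 arrays of the 20-week group, numbered 1 to 5, and 5 of the 5-week group, numbered 6 to 10. These 10 arrays are part of a set of 30, each from the oesophageal epithelium of a different rat. The study set out to find transcripts released by the oligonucleotide in a tumour model.

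All rats were male Sprague-Dawley rats that started their diet at 4 weeks of age, and all received the oesophageal carcinogen N-nitrosomethylbenzylamine (NMBA) by stomach tube, 4 weekly doses of 2 mg/kg from week 5. Both antimiR groups ate the ZD diet ad libitum. Each received a locked nucleic acid (LNA) antimiR in saline buffer by tail vein, a loading dose of 20 mg/kg and then 9 maintenance doses of 6 mg/kg over the first 5 weeks. Dosing then ended in the 5-week group. The 20-week group received 20 further doses, 2 a week for 5 weeks and then 1 a week for 10 weeks, during and after the carcinogen. Beside them stand 5 untreated ZD rats and 5 untreated rats on a zinc-sufficient (ZS) diet, pair-fed to the ZD rats, with the same carcinogen. The other 10 arrays came from rats with miR-31 deleted by CRISPR/Cas9 (6 on ZD, 4 on ZS). They entered the choice of probe set per gene, the estimate of the spread and the alternative fits on all arrays, and are not compared here. The untreated rats received no control oligonucleotide, and the arrays carried no measurement of miR-31. Per the labels, rats were killed 48 hours after their last antimiR dose or 15 weeks after the first carcinogen dose, and it is not said which applied to the 5-week group. The length of dosing, the time since the last dose and, if the 5-week group was taken early, age and exposure to the carcinogen cannot be told apart.

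MicroRNAs pair through their seed, a short stretch near the 5' end, with messenger RNAs and lower their level or translation, and an LNA antimiR is a short modified strand that binds the microRNA and blocks it. miR-31 is abundant in squamous epithelium, and its targets include inhibitors of growth signalling and the oxygen sensor gene Egln3. In the rodent oesophagus, zinc deficiency is known for thickening of the epithelium, inflammation and sensitivity to NMBA.

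The rat microRNA is shown because it is what both groups were dosed against; the labels do not say which arm of the hairpin the antimiR pairs with. The 5' arm lies in the RefSeq build GRCr8 at chr5:108714906-108714927 on the minus strand, is 22 bases long, and has its seed, bases 2 to 8, in capitals.
rno-miR-31a-5p: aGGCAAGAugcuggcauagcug

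Values are deposited log2 expression values, so a difference of 1 is 2-fold. The table ran from 2.11 to 14.5, and array medians lay between 5.37 and 5.42 in the 20-week group and between 5.38 and 5.44 in the 5-week group. Within a group any pair of arrays correlated at 0.972 or more (20 weeks) and 0.977 or more (5 weeks). Of 12 marker genes of oesophageal epithelium, 11 were measured, and their mean per array was 12.09 to 12.22 at 20 weeks and 12.02 to 12.20 at 5 weeks. Muscle was also present in varying amounts: the mean of 9 smooth muscle markers ran from 7.08 to 9.59 at 20 weeks and from 7.12 to 9.34 at 5 weeks, and that of 9 skeletal muscle markers from 6.69 to 9.49 and from 5.75 to 9.25. The knockout arrays had medians of 5.81 to 5.93, above those of the other arrays; whether all arrays were normalized together is not given in the sources used here.

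At 20 weeks, the cytokine gene Il18 rose and the nuclear genes Ppp1r10 and Csrnp1 fell relative to 5 weeks. They were the 3 genes of 14218 (0.0211%) that passed an adjusted p of 0.05 in limma, 1 upward (0.00703%) and 2 downward (0.0141%). At an unadjusted p under 0.05, 868 genes (6.10%) differed, 369 (2.60%) higher and 499 (3.51%) lower at 20 weeks. The split depended on scaling, with 394 higher and 367 lower after median centring and 412 higher and 429 lower after quantile normalization. In 134 genes (0.942%) the groups did not overlap, 38 (0.267%) with the 20-week arrays above and 96 (0.675%) with them below. A difference of at least 2-fold was reached by 19 genes (0.134%) upward and 28 (0.197%) downward. Over all genes the median difference was -0.01, and 45.2% lay above 0.

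Il18 (Entrez Gene 29197) encodes interleukin-18, a cytokine of the interleukin-1 family that epithelial cells store as a precursor. It stood at 8.51, 8.05, 8.52, 9.16 and 9.04 on arrays 1 to 5 and at 7.56, 7.27, 7.44, 7.33 and 7.68 on arrays 6 to 10. Every 20-week array lay above every 5-week array. The rise was 1.20 (SE 0.19), or 2.30-fold, with an adjusted p of 0.00869 in limma (n = 5 each). Untreated ZD arrays lay between 7.77 and 8.48 and ZS arrays between 7.72 and 8.49, above every 5-week array and below every 20-week array except array 2. Against untreated ZD, the 20-week difference was 0.55 (adjusted p = 0.151) and the 5-week difference -0.65 (adjusted p = 0.448), neither past the threshold; these comparisons share the untreated arrays.

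Ppp1r10 (Entrez Gene 65045) encodes a subunit that holds protein phosphatase 1 in the nucleus. Its values were 7.06, 7.49, 7.08, 6.97 and 6.97 at 20 weeks and 7.62, 8.10, 7.84, 7.78 and 8.13 at 5 weeks. The groups did not overlap, and array 2 was the highest of the 20-week arrays. Ppp1r10 fell by 0.78 (SE 0.13, adjusted p = 0.00869, n = 5 each). Untreated ZD arrays, at 7.02 to 7.65, spanned the gap between the groups, and the ZS arrays, at 6.95 to 7.25, lay with the 20-week group.

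Csrnp1 (Entrez Gene 363165), which encodes a nuclear protein rich in cysteine and serine, stood at 6.86, 6.94, 6.73, 6.79 and 6.50 at 20 weeks and at 7.12, 7.35, 7.25, 7.54 and 7.20 at 5 weeks. All 20-week arrays were lower. Csrnp1 fell by 0.53 (SE 0.10, adjusted p = 0.0461, n = 5 each). The ZS arrays lay at 6.43 to 6.81, and the untreated ZD arrays, at 6.85 to 7.24, overlapped both groups. No call held in every fit: without array 4, 5 or 7, or with the 10 antimiR arrays alone, no gene passed, while leaving out array 2 gave 20 genes. Median centring gave 7 calls, 4 up and 3 down, in place of 1 up and 2 down.

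**Figure D1:**
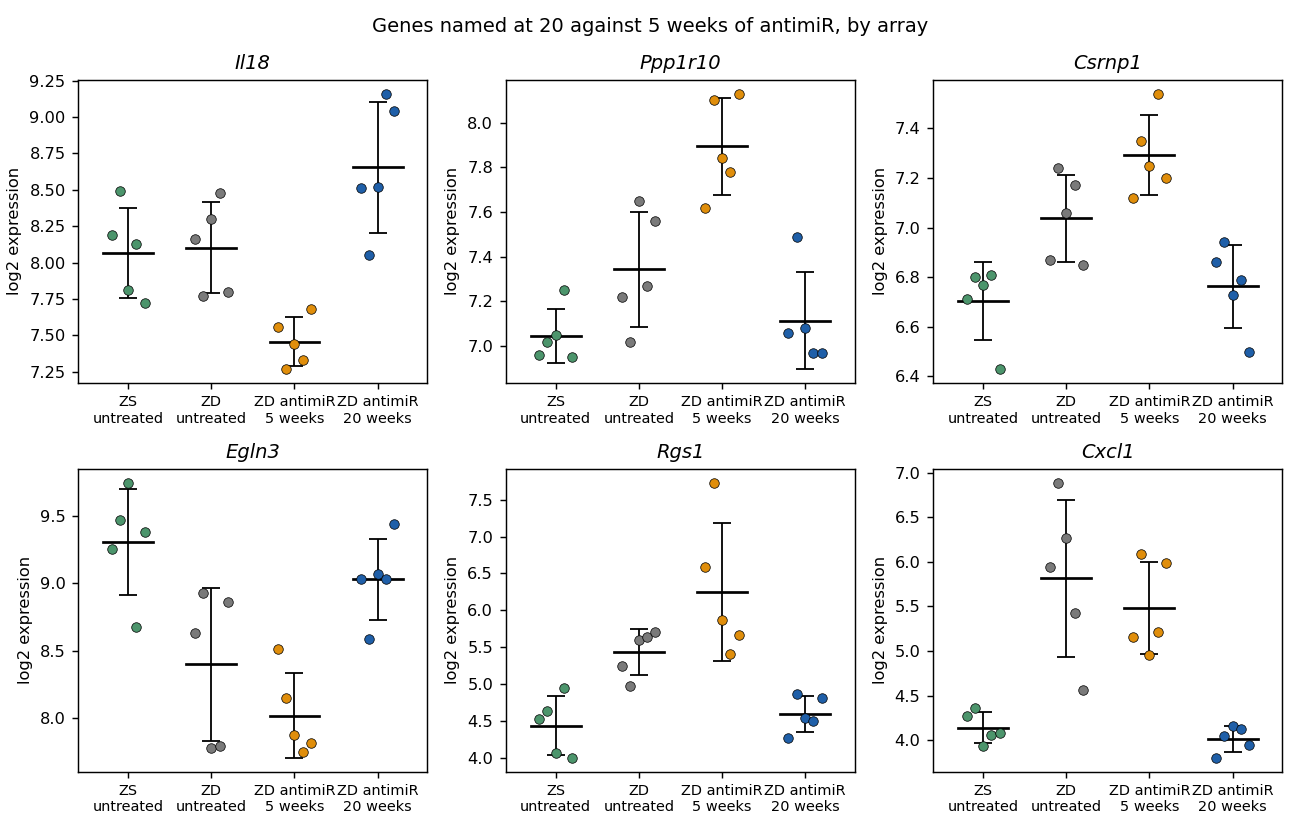
Log2 expression of Il18, Ppp1r10, Csrnp1, Egln3, Rgs1 and Cxcl1 in untreated ZS, untreated ZD, 5-week and 20-week antimiR rats; each point is an array, the line is the group mean and the bar 1 SD (n = 5 each). In each of the 6 genes the 20-week and 5-week points do not overlap, which was a condition for naming them among the largest changes. The 5-week Il18 points lie below all others.

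The next increases did not pass. Among genes whose groups did not overlap and that differed by at least 0.5, 8 more increases were named. Amotl2, an angiomotin family scaffold of the Hippo pathway, stood at 10.20, 10.28, 10.32, 10.18 and 10.17 at 20 weeks and at 9.77, 9.17, 9.68, 9.96 and 9.29 at 5 weeks. Its difference was 0.66 (SE 0.12, adjusted p = 0.0546), and the 20-week arrays were the tighter group. Cish, a feedback inhibitor of cytokine receptors, stood at 7.0, 6.90, 7.10, 7.34 and 7.43 against 6.55, 6.33, 6.43, 6.24 and 6.61. The 5-week values of Cish lay below all untreated ZD (6.78 to 7.12) and ZS (6.97 to 7.42) arrays, and the difference was 0.72 (SE 0.14, adjusted p = 0.0547).

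Bmp6, a bone morphogenetic protein ligand, stood at 6.35, 6.42, 7.01, 7.04 and 7.28 at 20 weeks and at 6.22, 6.15, 5.66, 5.86 and 6.25 at 5 weeks. The 5-week values sat in the untreated ZD range of 5.59 to 6.31, and the 20-week values lay between it and the ZS range of 7.42 to 7.91. The difference was 0.79 (adjusted p = 0.166), and 3 dimmer probe sets of the gene gave 0.13, -0.01 and 0.09. Named under the same rule of no overlap were the epithelial transcription factor Elf5 (0.55, adjusted p = 0.356) and the actin-binding kelch protein gene Enc1 (0.55, adjusted p = 0.462). So were the Ras association gene Rassf10 (0.60, adjusted p = 0.487) and the simple epithelial keratin Krt19 (0.51, adjusted p = 0.912). Krt19 lay near the bottom of the scale, at 3.79 to 4.64 at 20 weeks and 3.30 to 3.75 at 5 weeks. Untreated arrays of Krt19 overlapped both groups, and its unadjusted p in limma was 0.202. Dimmer probe sets of Enc1 gave 0.50, -0.11 and 0.01. The zinc finger gene Zfp120, at 0.36 (adjusted p = 0.0561), was noticed after its values were seen.

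Under the same rule of no overlap and a difference of at least 0.5, 8 decreases that did not pass were named. Rgs1, a brake on G protein signalling in leukocytes, stood at 4.27, 4.86, 4.54, 4.50 and 4.81 at 20 weeks and at 6.59, 7.73, 5.87, 5.41 and 5.66 at 5 weeks. The 20-week arrays lay within the ZS range of 4.0 to 4.95, and 3 of the 5-week arrays above the untreated ZD range of 4.98 to 5.70. The difference was -1.65 (SE 0.32, adjusted p = 0.0547). Ccn1, a matricellular protein gene of the Hippo and serum responses, stood at 4.55, 3.98, 4.46, 4.27 and 4.80 against 5.80, 6.87, 5.20, 4.96 and 6.78. Its difference was -1.51 (adjusted p = 0.356), and the ZS arrays alone spanned 4.22 to 7.08.

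The others were Tef, Vegfc, Cxcl1 and Krt6c, taken up with their pathways below, the formin gene Fmnl2 at -0.51 (adjusted p = 0.487) and Mertk, a receptor for clearing dead cells, at -0.71 (adjusted p = 0.633). A dimmer probe set of Mertk gave 0.10.

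Published targets of miR-31 were taken next. Of 39 measured, none passed; 3 were nominally higher and 1 nominally lower (unadjusted p under 0.05, beside 2.60% and 3.51% of all genes), the median difference was 0.01 and 51.3% lay above 0, beside a median of -0.01 and 45.2% over all genes. Egln3, the prolyl hydroxylase that marks hypoxia-inducible factor for destruction, stood at 9.03, 8.59, 9.07, 9.03 and 9.44 at 20 weeks and at 8.51, 8.15, 7.87, 7.75 and 7.81 at 5 weeks. The groups did not overlap, and the 20-week arrays lay in or just below the ZS range of 8.68 to 9.75. The untreated ZD arrays, at 7.78 to 8.93, overlapped both groups. The difference was 1.01 (SE 0.23), or 2.02-fold, with an adjusted p of 0.192. Lats2, a Hippo pathway kinase, differed by 0.34 (adjusted p = 0.521), the phosphatase subunit Ppp6c by 0.18 (adjusted p = 0.746), and the Ras inhibitor Spry4 by -0.22 (adjusted p = 0.782). Stk40, another published target, stood at a mean of 7.0 (SD 0.11) at 20 weeks and 7.03 (SD 0.23) at 5 weeks, and the sign of its difference of -0.03 turned on leaving out array 1, 9 or 10.

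Circadian clock genes form a feedback loop that also runs in epithelia. BMAL1 with CLOCK or NPAS2 drives genes with an E-box, among them the Per genes, Dbp, Tef and Bhlhe41; DBP and TEF act on D-boxes; and the Nr1d repressors act on ROR elements, Bmal1 among their targets. Of 18 measured clock genes none passed, and 8 were nominal, beside 6.10% of all genes. Bmal1 and Npas2 were nominally higher at 20 weeks (2.60% of all genes) and Tef, Nr1d2, Dbp, Per2, Per3 and Bhlhe41 nominally lower (3.51% of all genes). The median of the list was -0.23, and -0.15 without array 2. The labels used here do not give the hour at which tissue was taken.

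Promoters of 3 clock genes that hold the letters of an element of this loop are shown, since their levels differed in opposite directions. Whether these elements act in this tissue was not tested. Each is the RefSeq GRCr8 sequence of the 250 bases before the gene's start, with matches on either strand in capitals: ROR element (AA, any base, then TAGGTCA) in Bmal1 (chr1:176766078-176766327, plus strand), D-box TTANGTAA in Per2 (chr9:99496994-99497243, minus strand) and E-box CACGTG in Tef (chr7:115206577-115206826, plus strand).
Bmal1: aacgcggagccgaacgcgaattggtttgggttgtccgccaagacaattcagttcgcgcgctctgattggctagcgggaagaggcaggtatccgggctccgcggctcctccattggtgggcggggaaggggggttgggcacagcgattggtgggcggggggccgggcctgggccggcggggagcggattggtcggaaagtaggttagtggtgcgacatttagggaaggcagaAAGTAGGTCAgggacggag
Per2: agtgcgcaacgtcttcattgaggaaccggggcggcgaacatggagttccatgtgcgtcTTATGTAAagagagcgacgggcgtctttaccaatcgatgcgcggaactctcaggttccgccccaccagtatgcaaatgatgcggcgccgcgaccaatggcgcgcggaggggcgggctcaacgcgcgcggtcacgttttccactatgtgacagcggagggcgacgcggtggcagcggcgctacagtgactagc
Tef: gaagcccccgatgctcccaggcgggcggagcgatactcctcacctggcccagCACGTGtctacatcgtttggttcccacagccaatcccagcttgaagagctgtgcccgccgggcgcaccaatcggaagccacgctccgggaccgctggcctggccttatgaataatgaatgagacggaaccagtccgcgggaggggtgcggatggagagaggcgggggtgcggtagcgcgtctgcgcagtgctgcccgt

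The matches start 19, 192 and 198 bases before the start of Bmal1, Per2 and Tef. Of 27457 promoters of this length, 0.204% hold the ROR element, 2.02% the D-box and 5.79% the E-box. Among 16 clock promoters in the table, 1, 1 and 3 hold them, the E-box being found in Bhlhe40, Bhlhe41 and Tef. No match in this window says only that these letters are not in it.

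Bmal1 stood at 6.80, 6.59, 6.62, 6.55 and 7.28 at 20 weeks and at 6.61, 5.90, 6.10, 5.63 and 5.48 at 5 weeks. The groups overlapped through array 6, and the difference was 0.83 (SE 0.22, adjusted p = 0.338). Npas2 stood at 7.31, 6.87, 8.04, 8.01 and 8.64 against 8.12, 6.31, 6.72, 6.93 and 6.47, a difference of 0.86 (adjusted p = 0.746), again with array 6 among the 20-week values.

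On the opposite arm, Tef stood at 7.09, 6.69, 7.31, 7.50 and 6.86 at 20 weeks and at 7.74, 7.98, 7.69, 7.89 and 8.22 at 5 weeks. The groups did not overlap, the ZS arrays lay at 8.20 to 8.79, and the difference was -0.81 (SE 0.17, adjusted p = 0.123), with -0.72 and -0.24 on its other probe sets. The 20-week arrays of Tef lay farther below the ZS arrays than the 5-week arrays did. Dbp stood at 5.32, 5.48, 6.91, 7.68 and 5.78 against 7.32, 8.03, 7.25, 7.79 and 8.11, with array 4 inside the 5-week range, and differed by -1.47 (adjusted p = 0.400).

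Per2 stood at 7.11, 7.73, 7.88, 7.55 and 7.35 against 7.11, 8.67, 8.13, 8.88 and 9.87. Only array 6 of the 5-week group reached the 20-week range, and the difference was -1.0 (adjusted p = 0.575), with -0.11 on a dimmer probe set. Nr1d2 differed by -0.67 (adjusted p = 0.357), Per3 by -0.58 (adjusted p = 0.756) without overlap, and Bhlhe41 by -1.01 (adjusted p = 0.765). A dimmer probe set of Per3 gave -0.14. Bhlhe41 was at 4.27 to 4.57 on 4 of the 20-week arrays and at 6.99 on array 4.

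**Figure D2:**
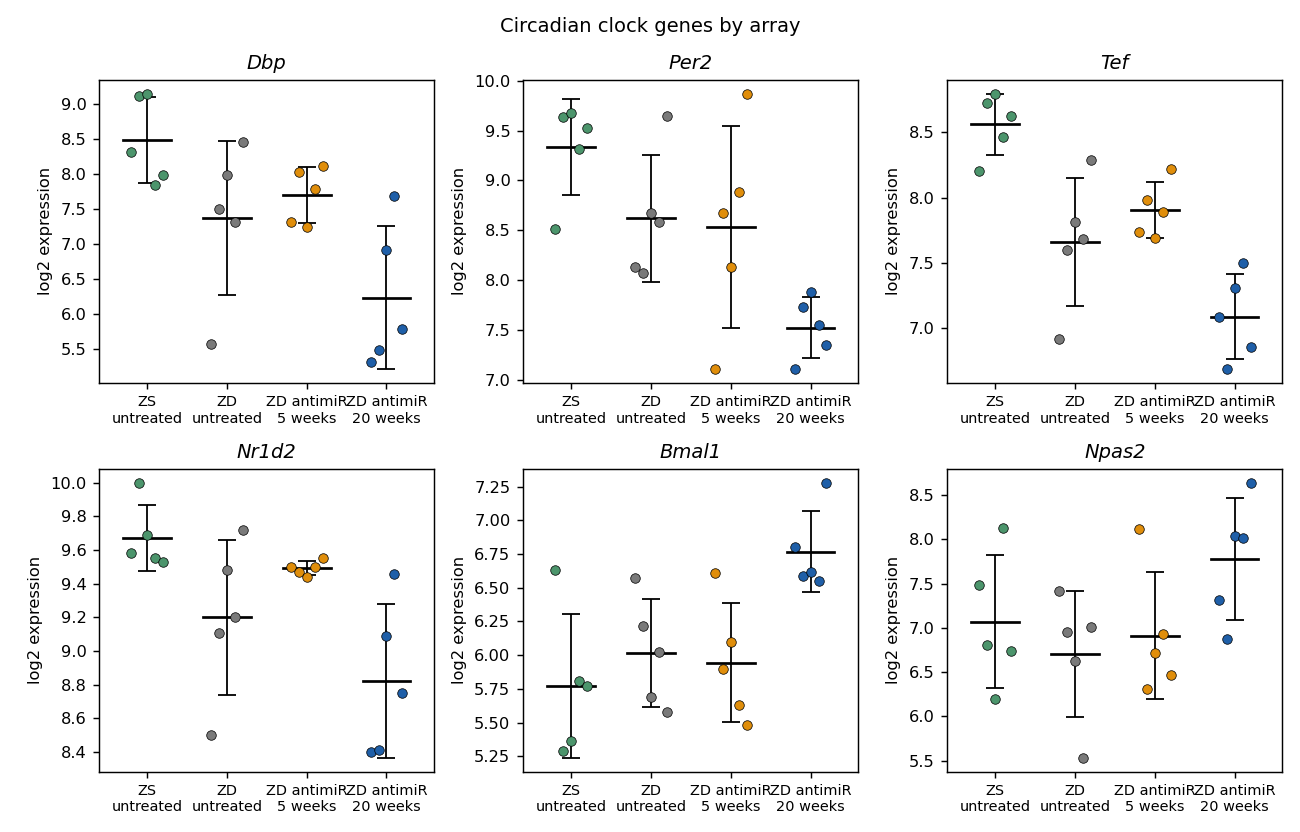
Log2 expression of the clock genes Dbp, Per2, Tef, Nr1d2, Bmal1 and Npas2 by array in the 4 groups of unedited rats; line, group mean; bar, 1 SD (n = 5 each). Dbp, Per2, Tef and Nr1d2 lie lower and Bmal1 and Npas2 higher on most 20-week arrays than on the 5-week arrays, with overlap in all of them but Tef; none passed.

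Of 39 measured targets of NF-kB and inflammation genes, Il18 passed upward and none downward. At an unadjusted p under 0.05, 3 lay higher at 20 weeks (Il18, Ripk2 and Il1a) and 4 lower (Cxcl1, Ccl2, S100a8 and S100a9), beside 2.60% and 3.51% of all genes, with a list median of -0.09. The lower genes are chemokines and the calprotectin subunits. Cxcl1, the neutrophil chemokine, stood at 3.80, 4.04, 4.16, 4.12 and 3.94 at 20 weeks and at 5.16, 6.09, 4.96, 5.21 and 5.99 at 5 weeks. The 20-week arrays sat with the ZS arrays (3.93 to 4.36), the 5-week arrays with the untreated ZD arrays (4.56 to 6.89), and the difference was -1.47 (SE 0.40, adjusted p = 0.356).

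The promoter of Cxcl1 (chr14:17479322-17479571, minus strand) is shown because the gene is a textbook NF-kB target; matches to the kappa-B letters (GGG, any 2 bases, then TTTCC) are in capitals, 1 on each strand, starting 102 and 84 bases before the start.
Cxcl1: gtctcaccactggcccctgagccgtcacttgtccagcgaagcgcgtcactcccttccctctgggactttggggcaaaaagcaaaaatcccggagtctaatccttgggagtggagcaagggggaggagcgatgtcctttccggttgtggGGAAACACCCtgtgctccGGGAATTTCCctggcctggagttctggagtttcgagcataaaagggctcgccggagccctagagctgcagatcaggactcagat
These letters occur in 1.28% of the 27457 promoters and in 10 of the 28 promoters found for the list.

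The monocyte chemokine Ccl2 stood at 5.74, 6.81, 5.62, 6.25 and 5.34 against 6.83, 7.81, 6.93, 7.60 and 6.72, overlapping only through array 2, with a difference of -1.23 (adjusted p = 0.746). S100a9, a subunit of calprotectin made by neutrophils and by stressed keratinocytes, stood at 4.81, 9.41, 4.51, 6.19 and 6.20 against 9.86, 10.51, 10.55, 6.49 and 7.17. Array 2 stood within the 5-week range, and the difference was -2.69 (SE 1.12, adjusted p = 0.746). Its partner S100a8 differed by -2.07 (adjusted p = 0.797). Upward, Ripk2, a kinase of bacterial sensing, differed by 0.36 without overlap (adjusted p = 0.633) and the cytokine Il1a by 0.78 with overlap (adjusted p = 0.765).

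In the prostaglandin pathway none of 18 measured genes passed, and the median was -0.04. Ptgs2, the inducible cyclooxygenase, stood at 2.91, 3.53, 3.44, 2.78 and 2.79 at 20 weeks and at 3.45, 6.76, 4.20, 3.37 and 4.20 at 5 weeks. The difference of -1.30 (adjusted p = 0.826) was carried in part by array 7, without which it was -0.71, and most values lay near the bottom of the scale. Untreated ZD arrays of Ptgs2 stood at 6.86, 9.14, 7.41, 8.29 and 3.15 and ZS arrays at 3.04 to 3.26. Apart from array 7, the 5-week arrays thus lay just above the ZS range, at 3.37 to 4.20. The prostaglandin D synthase Ptgds was nominally higher, by 0.95 (adjusted p = 0.338), and the prostaglandin E synthases Ptges and Ptges2 nominally lower, by -0.64 (adjusted p = 0.716) and -0.16 (adjusted p = 0.755). Over all genes 2.60% were nominally higher and 3.51% nominally lower.

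Markers of myeloid cells and vessels were taken next. In tissue RNA, fewer cells of a type and less RNA per cell cannot be told apart. Of 25 macrophage and antigen presentation genes, none passed and 19 lay below 0, beside 54.8% of all genes. The median was -0.17, -0.09 without array 6, -0.11 without array 4 and -0.28 without array 8. The resident macrophage receptors Mrc1 (-1.05, adjusted p = 0.576), Cd163 (-0.72, adjusted p = 0.641) and Adgre1 (-0.77, adjusted p = 0.776) were nominally lower and Fcgr3a (0.44, adjusted p = 0.621) and Cd68 (0.51, adjusted p = 0.799) nominally higher. Over all genes 3.51% were nominally lower and 2.60% nominally higher. Mrc1 stood at 5.03, 4.72, 5.47, 5.80 and 5.80 against 6.78, 5.92, 6.29, 7.34 and 5.73, overlapping through array 10.

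Of 17 neutrophil and mast cell genes none passed and 13 lay below 0, beside 54.8% of all genes. The median was -0.21, and -0.12 without array 10. The neutrophil genes Cxcr2 (0.19), Camp (0.06), Mmp8 (0.05) and Ncf4 (0.04) lay above 0, with Csf3r at -0.03 and Mmp9 at -0.21. Larger falls were in mast cell genes such as Fcer1a (-0.89) and Cpa3 (-0.73), though Kit lay at -0.03. The transcription factor Gata2 (-0.39, adjusted p = 0.553) and the mast cell protease Mcpt1 (-1.71, adjusted p = 0.798) were nominally lower, beside 3.51% of all genes. A dimmer probe set of Gata2 gave -0.04. Mcpt1 lay between 4.42 and 5.00 at 20 weeks and at 9.25 and 7.61 on arrays 8 and 9 of the 5-week group, with the other 5-week arrays at 4.89 to 5.33. Without array 8 the difference was -1.0. The 20 measured T and B cell genes had a median of -0.05, and none was nominal.

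Vessel activation and adhesion genes, which capture leukocytes on the vessel wall or shape new vessels, held 20 measured members, of which none passed and 5 were nominally lower, beside 3.51% of all genes. The median was -0.22, and -0.13 without array 9. The list's mean per array was 5.54, 5.32, 5.55, 5.55 and 5.46 at 20 weeks and 5.93, 5.66, 5.56, 5.89 and 5.64 at 5 weeks. Every 20-week array lay below every 5-week array, but only just, at 5.55 against 5.56 where the groups came closest. This separation was noticed among 32 lists. Vegfc, the lymphatic growth factor, stood at 6.41, 6.23, 6.42, 5.84 and 5.86 against 7.04, 6.51, 6.86, 6.75 and 6.54, a difference of -0.59 (adjusted p = 0.252). The pericyte gene Rgs5 differed by -0.72 (adjusted p = 0.397), the selectins Sele and Selp by -0.74 (adjusted p = 0.640) and -0.50 (adjusted p = 0.723), and the endothelial proteoglycan Esm1 by -0.68 (adjusted p = 0.746). A dimmer probe set of Selp gave -0.03. Of the general endothelial genes none passed or was nominal; all 16 measured lay below 0, beside 54.8% of all genes, with a median of -0.21 that ran from -0.09 (without array 9) to -0.30 (without array 3 or 8), and the mean of the list overlapped, from 6.01 to 6.61 at 20 weeks and from 6.24 to 6.93 at 5 weeks. The part of endothelial content in the vessel genes was not tested.

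Immediate early genes, which cells switch on within minutes of a stimulus, were considered as well. Of 26 measured none passed, 6 were nominally lower and 1 nominally higher, beside 3.51% and 2.60% of all genes, and the median was -0.14. Klf2, a transcription factor of sheared endothelium and resting lymphocytes, stood at 7.56, 7.28, 7.75, 7.98 and 7.53 at 20 weeks and at 8.75, 8.58, 7.50, 8.52 and 8.60 at 5 weeks. Array 8 was the exception among the 5-week arrays. The difference was -0.77 (adjusted p = 0.397). A second probe set of Klf2 with a mean of 7.79 over the 10 arrays gave -0.04, and dimmer ones gave -0.67, -0.07 and 0.00. The orphan receptor Nr4a1 differed by -1.08 (adjusted p = 0.633), the phosphatase Dusp1 by -0.50 (adjusted p = 0.645) without overlap, Ier2 by -0.28 (adjusted p = 0.721) and the AP-1 subunit Junb by -0.31 (adjusted p = 0.723).

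The 1 nominal increase in that list, the zinc finger gene Egr2, stood at 7.15, 7.35, 7.75, 6.89 and 7.05 at 20 weeks and at 6.52, 7.10, 6.52, 6.39 and 6.85 at 5 weeks. All 20-week arrays exceeded the untreated ZD range of 6.00 to 6.51, as did the 5-week arrays other than that at 6.39. The difference from 5 weeks was 0.56 (SE 0.16, adjusted p = 0.372), and a dimmer probe set gave -0.03.

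Cell cycle genes varied widely between the 5-week arrays. Of 39 measured none passed, 10 were nominally higher and none lower, beside 2.60% and 3.51% of all genes, and 28 lay above 0 (71.8%, beside 45.2% of all genes). The median was 0.48, 0.29 without array 6 and 0.75 without array 9. The nominal members are genes of mitosis and late cycle; of the replication and G1 genes, Mcm2 to Mcm7 lay between -0.22 and -0.07, Pcna at -0.01, Tyms at -0.21 and the cyclins Ccne1 and Ccnd1 both at -0.33, while Rrm1 lay at 0.22 and E2f1 at 0.08, none nominal. Cenpf, a kinetochore protein gene, stood at 7.95, 7.56, 7.09, 7.80 and 8.04 at 20 weeks and at 5.66, 6.07, 7.25, 7.90 and 6.07 at 5 weeks. Arrays 8 and 9 of the 5-week group stood among the 20-week arrays. The difference was 1.10 (adjusted p = 0.553).

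The same spread held for the spindle gene Nusap1 (1.07, adjusted p = 0.641), the checkpoint kinase Bub1b (0.93, adjusted p = 0.716), the mitotic cyclin Ccnb1 (0.88, adjusted p = 0.754) and the proliferation marker Mki67. Mki67 stood at 9.51, 9.26, 8.41, 9.15 and 9.21 against 6.78, 7.70, 8.93, 9.76 and 7.77, a difference of 0.92 (adjusted p = 0.795). The mean of the list was 7.78, 7.81, 7.18, 7.52 and 7.52 at 20 weeks and 6.27, 6.80, 7.49, 8.23 and 6.87 at 5 weeks, so that array 9 had the highest value of all and array 6 the lowest. Untreated ZD arrays spanned 7.18 to 9.73 for Mki67 and ZS arrays 7.96 to 8.62.

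The main keratins of the basal and upper layers overlapped between the groups. Krt13, a keratin of the upper oesophageal layers, stood at a mean of 14.05 (SD 0.03) at 20 weeks and 14.05 (SD 0.04) at 5 weeks. The basal keratin Krt14 differed by -0.24 (adjusted p = 0.913). Stress keratins lay lower at 20 weeks: Krt6c stood at 9.73, 10.98, 9.31, 9.71 and 10.08 against 12.11, 11.89, 12.40, 11.01 and 11.05, without overlap. All 5-week values lay in the untreated ZD range of 10.47 to 13.70, as did array 2 of the 20-week group, while array 3 lay in the ZS range of 8.36 to 9.62 and arrays 1, 4 and 5 between the ranges. The difference was -1.73 (SE 0.52, adjusted p = 0.462), with -1.08 and -2.34 on its other probe sets; Krt6 genes are near-identical and can share signal. Krt17 stood at 6.78, 8.18, 7.38, 7.40 and 7.26 against 8.80, 9.40, 9.53, 8.94 and 8.14, touching only through arrays 2 and 10, and differed by -1.56 (adjusted p = 0.690). Of the 20 genes of that list 2 were nominally lower, Krt6c and Krt17, beside 3.51% of all genes, and the median was -0.01.

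Of 28 cornified envelope and desmosome genes none passed and the median was 0.02. The envelope genes Ecm1 (0.51, adjusted p = 0.796) and Scel (0.21, adjusted p = 0.798) were nominally higher and the transglutaminase Tgm5 (-0.57, adjusted p = 0.795) nominally lower. The shares over all genes were 2.60% and 3.51%. Ivl, the precursor involucrin, differed by 0.96 (adjusted p = 0.823) with overlap.

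Retinoid metabolism held 25 measured genes with a median of 0.12, none passing. Cyp26b1, which degrades retinoic acid, stood at 9.78, 9.54, 10.39, 10.00 and 10.35 at 20 weeks and at 9.85, 9.06, 8.54, 8.59 and 9.21 at 5 weeks. The groups overlapped through array 6, the ZS arrays lay above both (10.48 to 11.03), and the difference was 0.96 (SE 0.25, adjusted p = 0.327), with 0.77 on a dimmer probe set. Rdh10, which makes retinaldehyde, was nominally lower, by -0.31 (adjusted p = 0.497), with -0.03 on a dimmer probe set. Aox4, an aldehyde oxidase, stood at 5.25, 5.60, 9.16, 9.92 and 9.98 against 5.43, 4.74, 6.60, 6.82 and 6.09. Arrays 1 and 2 lay at the untreated ZD level (5.07 to 6.27) and arrays 3 to 5 in the ZS range (8.36 to 10.85), and the difference was 2.05 (SE 0.73, adjusted p = 0.633).

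Zinc transporter and metallothionein genes, which set the cell's zinc, had a median of 0.00 over 25 measured, with none passing. The importer Slc39a2 stood at 6.90, 6.47, 6.11, 7.13 and 7.19 at 20 weeks and at 5.88, 5.80, 5.86, 5.55 and 6.15 at 5 weeks, meeting only at arrays 3 and 10, and differed by 0.91 (adjusted p = 0.338). Slc39a11 was nominally higher (0.28, adjusted p = 0.785) and Slc39a8 (-0.40, adjusted p = 0.746) and Slc39a7 (-0.23, adjusted p = 0.782) nominally lower. The shares over all genes were 2.60% higher and 3.51% lower. Slc39a4, the importer of dietary zinc, differed by -0.06 (adjusted p = 0.983).

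Hypoxia and glycolysis genes had a median of -0.03 over 34 measured, the nominal members being Egln3 and Ankrd37, a target of hypoxia-inducible factor (0.47, adjusted p = 0.356). Interferon response genes had a median of 0.06 over 28, with Bst2 (0.49, adjusted p = 0.575) and Ifi27 (0.36, adjusted p = 0.553) nominally higher and Oas1b (-0.25, adjusted p = 0.575) nominally lower, the latter near the bottom of the scale. Of 20 p53 response genes, Gadd45b (0.49, adjusted p = 0.495) and Sesn2 (0.24, adjusted p = 0.553) were nominally higher. A dimmer probe set of Sesn2 gave 0.02. Of 22 growth genes that fall with age in juvenile tissues, the imprinted gene Mest alone was nominal (0.99, adjusted p = 0.798), and the median was 0.02. Of 13 adipocyte genes Cfd (-0.85, adjusted p = 0.746) and Pparg (-0.59, adjusted p = 0.650) were nominally lower. In that list 7 genes lay above 0, and the median was 0.03. Beside the nominal members of all these lists, 2.60% of all genes were nominally higher and 3.51% nominally lower.

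Of 13 smooth muscle genes 12 lay above 0, beside 45.2% of all genes, with a median of 0.30. The 27 skeletal muscle genes had a median of 0.18, and none was nominal in either list. Leaving out 1 array moved the smooth muscle median between 0.02 and 0.58 and the skeletal muscle median between -0.34 and 0.64. The remaining lists had medians between -0.09 and 0.06.

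**Figure D3:**
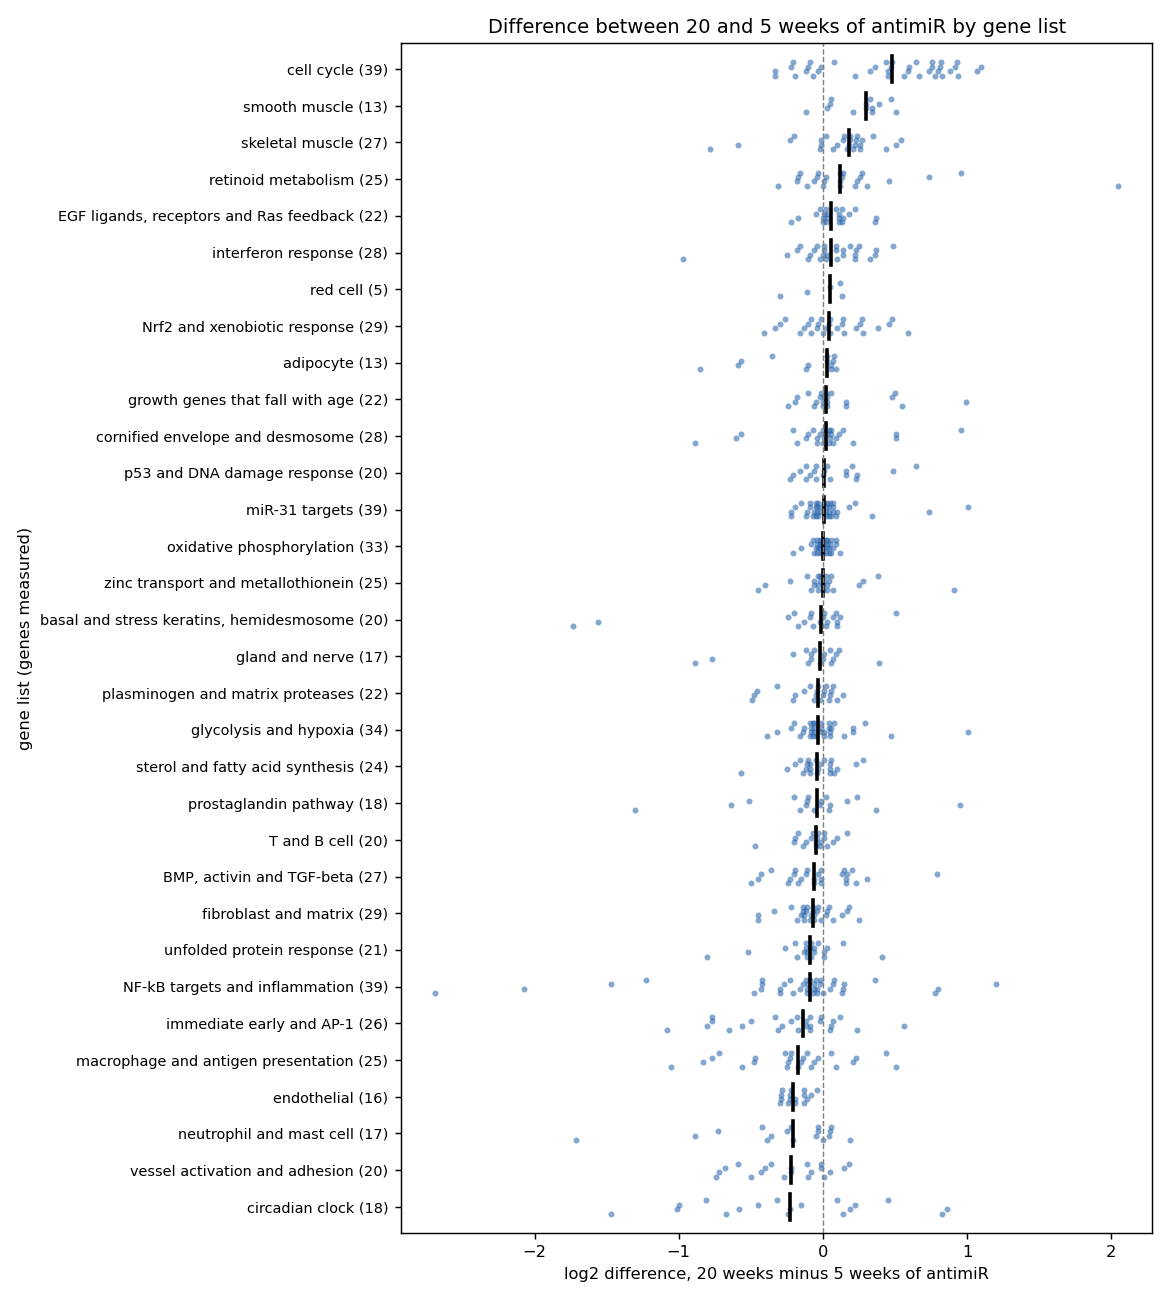
Log2 difference between 20 and 5 weeks of antimiR for each measured gene (points) of 32 gene lists, with the list median as a black bar and the number of genes in brackets. Medians run from -0.23 for the circadian clock to 0.48 for the cell cycle, beside -0.01 over all genes.

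The last question was whether the 20-week arrays lay nearer to the zinc-sufficient level than the 5-week arrays. Diet genes were taken from the untreated rats, whose arrays are not among the 10 compared: 1977 genes (13.9%) passed between untreated ZD and ZS, 989 (6.96%) higher and 988 (6.95%) lower on ZD. Of the genes higher on ZD, 789 (79.8%) were lower at 20 than at 5 weeks, beside 54.8% of all genes, with a median of -0.09. Of those lower on ZD, 795 (80.5%) were higher at 20 weeks, beside 45.2% of all genes, with a median of 0.10. Genes move together, so these shares are a description. At an unadjusted p under 0.05, 143 genes higher on ZD lay towards the ZS level and 8 away from it; of genes lower on ZD, 102 lay towards it and 2 away. Of the genes that passed between 20 and 5 weeks, Csrnp1 was the diet gene, higher on ZD by 0.33 (adjusted p = 0.0233). The cell cycle list lay the other way, with a mean of 7.56 (SD 0.26) at 20 weeks and 7.13 (SD 0.75) at 5 weeks. For that list untreated ZD arrays averaged 7.56 (SD 0.79) and ZS arrays 7.22 (SD 0.09).

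Diet genes of at least 2-fold differed more. Of 100 such genes higher on ZD, 88 (88.0%) were lower at 20 weeks, with a median of -0.36; of 185 lower on ZD, 158 (85.4%) were higher, with a median of 0.30. Across all 14218 genes the 20 minus 5 week difference and the diet difference had a Pearson r of -0.43 and a Spearman rho of -0.33, over genes that share arrays and are not independent.

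**Figure D4:**
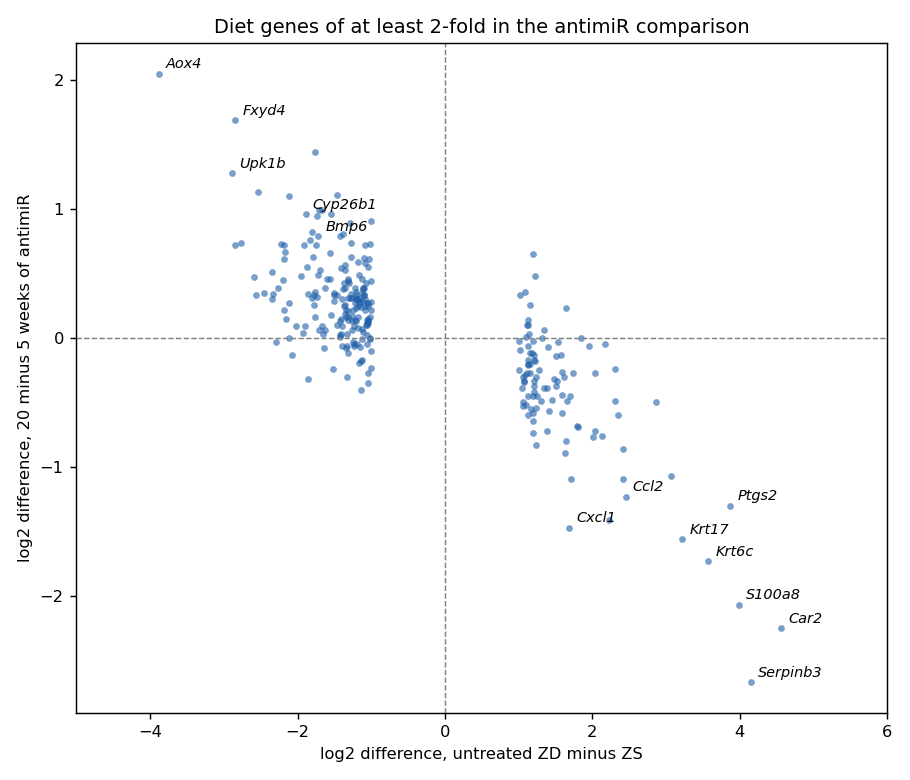
Log2 difference between 20 and 5 weeks of antimiR against the log2 difference between untreated ZD and ZS rats for the 285 genes at least 2-fold apart with diet; each point is a gene. Of the 100 genes on the right 88 lie below 0, and of the 185 on the left 158 lie above 0.

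The shift was uneven between rats. The mean of the 100 genes higher on ZD was 7.21, 7.75, 6.90, 6.77 and 6.67 on arrays 1 to 5 and 7.37, 7.71, 7.64, 7.52 and 7.30 on arrays 6 to 10. Array 2 lay above every 5-week array and the other 20-week arrays below all of them; untreated ZD arrays averaged 7.96 (SD 0.44) and ZS arrays 6.35 (SD 0.07). The mean of the 185 genes lower on ZD was 6.50, 5.84, 7.07, 7.55 and 7.36 against 6.84, 6.24, 6.43, 6.82 and 6.33, beside 6.26 (SD 0.32) in untreated ZD and 7.74 (SD 0.24) in ZS. Arrays 3 to 5 were nearest to the ZS level, array 1 lay in the 5-week range and array 2 below all of the 5-week arrays. The mean of the smooth muscle list put arrays 1 to 5 in the same order, at 7.85, 6.97, 8.38, 9.29 and 8.72. On arrays 6 to 10 it was 8.08, 7.02, 8.46, 9.07 and 7.36, in another order. The 185 genes include smooth muscle genes such as Cnn1 and Myh11. The part of muscle content in the order of the arrays was not tested.

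Car2, a carbonic anhydrase and the largest diet gene, 4.56 higher on ZD, showed the uneven shift in full. It stood at 8.58, 10.33, 6.49, 5.91 and 5.84 at 20 weeks and at 9.22, 10.01, 10.48, 9.58 and 9.13 at 5 weeks. Arrays 3 to 5 lay in the ZS range (4.98 to 7.26), array 2 in the 5-week range and array 1 just below the untreated ZD range (8.59 to 11.67). The difference was -2.25 (SE 0.65, adjusted p = 0.397), with -1.99 on a second probe set.

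Serpinb3, a squamous cell serpin, stood at 7.56, 10.08, 5.66, 5.46 and 4.35 against 9.10, 9.28, 9.50, 10.18 and 8.38, again with array 2 among the 5-week values, and differed by -2.67 (SE 0.74, adjusted p = 0.356). The stefin gene Stfa2l2 differed by -1.07 (adjusted p = 0.746).

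Among genes lower on ZD, Fxyd4, a regulator of the sodium pump, stood at 8.56, 6.50, 9.71, 9.54 and 9.66 against 8.09, 8.31, 5.75, 6.25 and 7.10. Array 2 fell inside the 5-week range, and the difference was 1.69 (SE 0.57, adjusted p = 0.561). The uroplakin gene Upk1b stood at 4.12, 3.80, 6.93, 7.79 and 6.54 against 5.12, 4.04, 4.13, 4.37 and 5.15, so that arrays 3 to 5 alone lay above the 5-week range. Its difference was 1.28 (adjusted p = 0.795), and that of Prr15 was 1.13 (adjusted p = 0.787). Of the 10 largest diet genes in each direction, all 10 higher on ZD were lower and all 10 lower on ZD were higher at 20 weeks, and none passed.

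**Figure D5:**
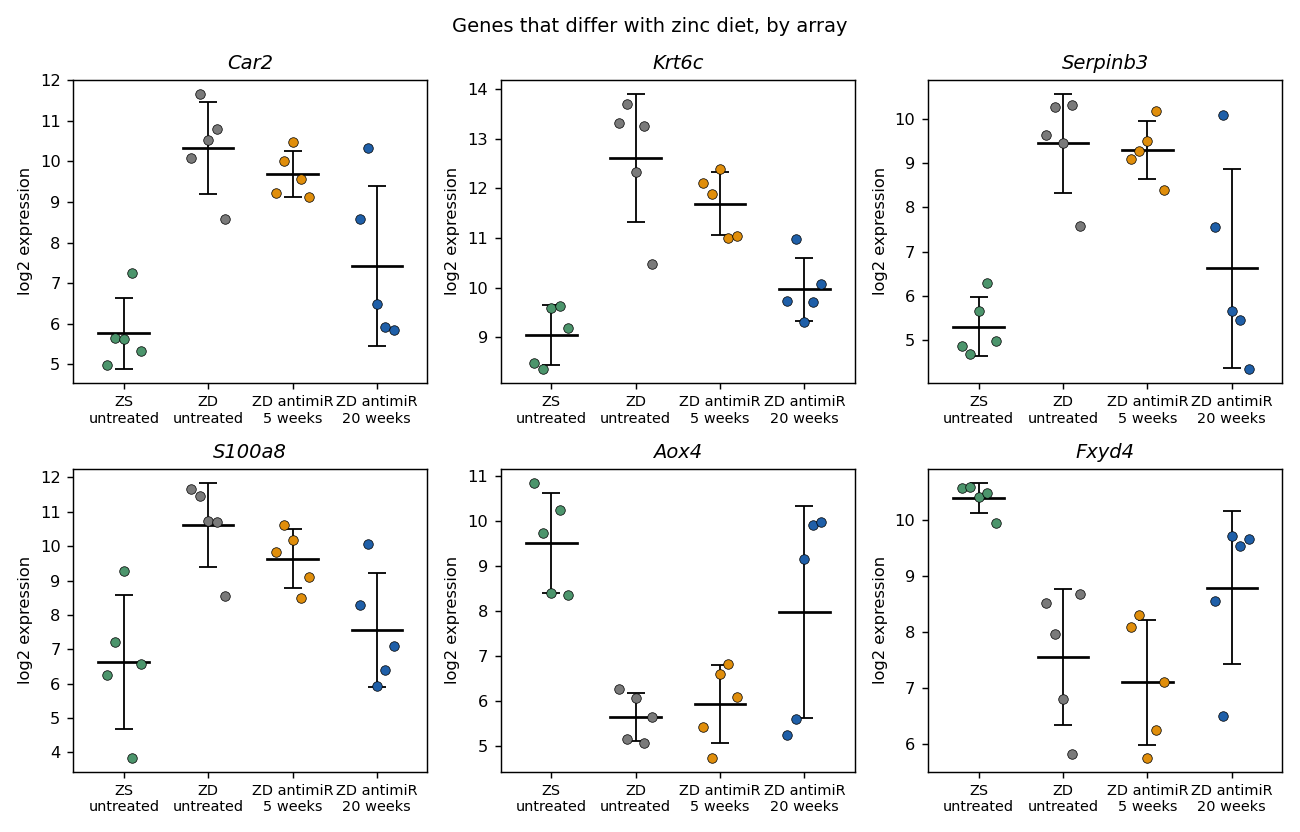
Log2 expression of Car2, Krt6c, Serpinb3 and S100a8, higher on ZD, and of Aox4 and Fxyd4, lower on ZD, by array in the 4 groups of unedited rats; line, group mean; bar, 1 SD (n = 5 each). The 5-week points lie near the untreated ZD points, and the 20-week points spread from that level to the ZS level.

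Smooth muscle genes differ with diet too, 4 of the 10 largest genes lower on ZD being Cnn1, Myh11, Myl9 and Actg2. All 9 smooth muscle markers were on average higher at 20 weeks, beside 45.2% of all genes, with overlap. With smooth muscle level as a covariate, only 76 genes still passed as higher and 65 as lower on ZD, against 989 and 988 without it, and 90.8% and 81.5% of these lay towards the ZS level. Over the 989 and 988 genes called without the covariate, the shares with it were 73.9% and 70.7%; this alternative was chosen with the other values known. The shares also moved with single arrays: genes higher on ZD stood at 89.7% without array 2 and 71.7% without array 5, and genes lower on ZD at 88.9% without array 2 and 67.0% without array 4.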

How the data were processed

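Total RNA from frozen, pulverised oesophageal epithelium was measured on Affymetrix rat arrays, 1 per rat. The authors deposited log2 values per probe set, made with Affymetrix Expression Console and RMA per the submitters' processing notes; their versions are not given in the sources used here. Of 31099 probe sets, 20832 carried 1 symbol in the platform annotation, 436 several and 9774 none used, and 57 were controls; 20764 matched RefSeq by gene ID. Each of 14218 genes was taken at its probe set with the highest mean over all 30 arrays. limma 3.58.1 in R 4.3.3 was fitted to all 30 arrays with 1 coefficient per group, and p-values were adjusted by Benjamini-Hochberg over all genes, with a threshold of 0.05. The script was tested on simulated data. Sample numbers are unique to each rat. Nothing states separate litters or cages, so p-values measure only the spread between these arrays, whose number limits the precision.

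The members and the 32 gene lists (761 of 857 entries measured) were chosen with earlier results of these data known. Named genes were the up to 10 largest passing changes each way without overlap, filled with unpassed genes of smallest p differing by at least 0.5, up to 4 genes of smallest p per list, and 15 preset genes. Chosen after their values were seen were Per2, Npas2, Per3, Bhlhe41, Ccl2, Il1a, Esm1, Cd68, Junb, Ier2, Serpinb3, Stfa2l2, Upk1b, Fxyd4, Prr15, Myh11, Myl9, Mcm2 to Mcm7, Pcna, Tyms, Ccne1, Ccnd1, Rrm1, E2f1, Angptl4, Fam111a and Zfp120. Alternatives were quantile normalization, median centring, a fit without the dimmest 30% of genes, trend and robust fitting, array weights, fewer arrays, the mean of probe sets or all of them, muscle covariates and leaving out each array.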

Additional observations from a re-analysis of the deposited data

Results flagged for a closer look

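Among 256 group values tested (the named genes and list means in either antimiR group), 16 had 1 array farther from the others than Dixon's 95% limit for 5 values, 6.2%; chance alone gives about 1 in 20.

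In the 20-week group, array 1 was low for Krt14 (11.73, others 12.40 to 12.55), Fam111a (6.48, others 9.18 to 9.92) and the Nrf2 list mean (9.26, others 9.37 to 9.40), and high for the red cell list mean (4.92, others 4.73 to 4.77). Array 2 was high for Ppp1r10 (7.49, others 6.97 to 7.08) and Fcgr3a (5.08, others 4.18 to 4.37) and low for Ptgds (5.15, others 6.05 to 6.41). Array 3 was low for Nusap1 (7.70, others 8.51 to 8.81) and array 4 high for Bhlhe41 (6.99, others 4.27 to 4.57).

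In the 5-week group, array 6 was low for Elf5 (6.62, others 7.0 to 7.11) and Krt14 (12.24, others 12.61 to 12.70). Array 7 was high for Ptgs2 (6.76, others 3.37 to 4.20) and array 8 low for Klf2 (7.50, others 8.52 to 8.75). Array 9 was high for the miR-31 target list mean (7.61, others 7.49 to 7.51). Array 10 was high for Per3 (7.49, others 6.76 to 6.94) and for the gland and nerve list mean (5.35, others 4.69 to 4.83).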

How the results depend on the processing

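The count of 3 genes was 7 with median centring, 7 without the dimmest 30% of genes, 22 with array weights and 0 with the 10 antimiR arrays alone (779 at an unadjusted p under 0.05 in limma); the other 7 alternatives on whole groups gave 2 to 4. Leaving out 1 array gave 0 to 20: 0 without array 4, 5 or 7 (618, 658 and 924 genes at an unadjusted p under 0.05), 8 without array 1, 20 without array 2, 5 without array 6 or 9 and 7 without array 10. Il18 and Ppp1r10 passed in 16 of 20 alternatives (adjusted p from 0.000709 to 0.266 for both) and Csrnp1 in 9 of 20 (0.00483 to 0.435). Of 1904 values of 96 named genes under the alternatives, 1895 kept their direction; Stk40 reversed in fits without 1 array (range -0.10 to 0.04) and Krt13, near 0 throughout, reached 0.01 with median centring, 0.00 with the smooth muscle covariate and -0.02 to 0.01 without 1 array. The red cell list median was -0.30 without dim genes, that of the Nrf2 list ran from -0.02 to 0.09 and that of the p53 list from -0.05 to 0.03 without 1 array. The share of diet genes towards the ZS level was, for genes higher on ZD, 76.5% with median centring, 87.2% with array weights, 90.8% with the smooth muscle covariate (over the 76 genes still called for diet), 73.9% with it over the 989 genes called without it (added after the data were seen) and 71.7% to 89.7% without 1 array; for genes lower on ZD it was 84.3%, 85.9% with array weights, 77.6% with the 20 arrays of unedited rats, 70.7% with the smooth muscle covariate over the 988 genes called without it and 67.0% to 88.9%. The causes were not tested. No paired analysis was possible because sample numbers are unique to each rat.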

Other observations

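Some of the larger differences belonged to no list and were picked out after their values were seen. Fam111a, a protease gene linked to DNA replication, stood at 6.48, 9.18, 9.92, 9.34 and 9.90 at 20 weeks and at 4.04, 5.88, 6.27, 7.23 and 6.72 at 5 weeks. Its difference of 2.94 (SE 1.04, adjusted p = 0.633 in limma) was the highest of all genes, and untreated ZD arrays alone spanned 4.22 to 10.31. Angptl4, a secreted inhibitor of lipoprotein lipase, stood at 7.65, 7.10, 6.74, 7.16 and 7.55 against 6.79, 5.52, 6.13, 6.64 and 5.32, and differed by 1.16 (SE 0.32, adjusted p = 0.356). On 4 of the 5 arrays the 20-week value of Angptl4 lay above both untreated ranges, 5.47 to 6.85 on ZD and 5.02 to 6.54 on ZS.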
